A study of Mus musculus with 4 samples.

Results

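The 10 genes described here encode enzymes that place, copy or remove DNA methylation, with UHRF1, which guides DNMT1, and IDH1, which supplies 2-oxoglutarate. The genes, called enzyme genes below, are Dnmt1, Uhrf1, Dnmt3a, Dnmt3b, Tet1, Tet2, Tet3, Idh1, Tdg and Mbd4. They were taken by symbol from a matrix of 19354 genes, and each has 1 row. The matrix comes from bulk RNA-Seq of hematopoietic stem cells (HSCs), sorted from mouse bone marrow as LSK FLT3- CD48- CD150+ cells. Control libraries are from Mx1-Cre Id2+/+ mice (14 mice, labelled WT), and Id2Δ/Δ libraries from Mx1-Cre Id2 fl/fl mice (15 mice, labelled ID2KO). All mice were 8 to 16 weeks old, carried Mx1-Cre and were sampled 2 weeks after polyinosinic:polycytidylic acid (pIpC). Mx1-Cre is switched on by interferon, which pIpC induces, and it acts in many cell types besides HSCs. Cells were pooled over mice in 2 experiments, which gave 2 libraries per genotype, so error bars and p-values measure the spread between pools.

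DNA methylation sits mostly on cytosines of CpG dinucleotides. DNMT3A and DNMT3B methylate unmarked DNA, whereas DNMT1, led by UHRF1 to freshly replicated DNA, copies the mark to the new strand. The TET enzymes oxidize the methyl group with iron and 2-oxoglutarate, a metabolite that IDH1 makes in the cytosol, and the glycosylases TDG and MBD4 cut out modified or mispaired bases for repair. In HSCs, loss of DNMT3A or TET2 is known to favor self-renewal over differentiation, and both genes are often mutated in clonal hematopoiesis.

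Values are log2 CPM (read counts scaled to a common library total), quantile-normalized by the authors, and the depth recovered from them was 14207350 to 18831991 reads per library. Id2, the deleted gene, was detected with 93 and 98 reads in the controls and with 0 in both Id2Δ/Δ libraries, which puts it at least 38.4-fold lower (a count of 0 taken as its upper limit of 3 reads per library, counting error only). Across all tested genes, the 2 control libraries correlated at 0.972 (Pearson's r) and the 2 Id2Δ/Δ libraries at 0.942. Of the HSC markers all 9 had a row, 7 with a negative log2 fold change (48.3% of all genes tested). The median over the 9 markers was -0.22, and -0.14 with the correction for transcript length described below. Of the 7 lower markers, 4 had an unadjusted p under 0.05 from limma, beside 469 lower genes of the 15895 tested (4.67% counting both directions). The summed level of the 9 markers was 5471 and 5370.1 CPM in Id2+/+ and 3879 and 4489.9 CPM in Id2Δ/Δ HSCs. Markers of other blood cells summed to at most 282 CPM over 10 neutrophil genes and 42.5 CPM over 7 erythroid genes. No row among the values used was found for 4 of 5 T-cell markers and 3 of 6 B-cell markers. Of those with a row, Lck (T cell) was at 4.41 to 4.56 log2 CPM, and Cd79b and Vpreb1 (B cell) were at 5.06 to 5.67 and 1.54 to 1.68. The median of each library was 3.92. Of the markers sorted against, Flt3 RNA was at 5.47 to 5.63 log2 CPM and Cd48 RNA at 1.40 to 3.04. The 6 megakaryocyte genes summed to 454 and 509.8 CPM in Id2+/+ and 513 and 598 CPM in Id2Δ/Δ libraries. The part of these marker differences in the results below was not tested.

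All 10 enzyme genes were well expressed, from the 57.7th percentile of abundance (Tdg) to the 98.2nd (Dnmt1) among the 15895 tested genes, whose mean level was 1 CPM or more. Both maintenance genes, Dnmt1 and Uhrf1, had higher means in Id2Δ/Δ than in Id2+/+ HSCs with overlapping libraries, while the other 8 genes had lower means (48.3% of all genes tested had a log2 fold change below 0). In 7 of the 10 genes (Dnmt3a, Tet1, Tet2, Tet3, Idh1, Tdg and Mbd4) both Id2Δ/Δ libraries lay below both Id2+/+ libraries, which was so for 15.8% of all genes tested. No gene of the 10 had its libraries apart in the other direction (19.0% of all genes tested). The differences were small, with a change of -20.5% for Tet1 at one end and 12.0% for Uhrf1 at the other. None passed the limma test after Benjamini-Hochberg adjustment over all genes (0.0% of genes called, smallest adjusted p = 0.910), and 1 of 10, Dnmt3a, had an unadjusted p under 0.05, against 4.67% of all genes (742 of 15895). The median log2 fold change over the 10 genes was -0.22, beside 0.01 over all genes tested. Single fold changes were not extreme, since 14.6% of genes tested had a lower value than Tet1 and 72.7% a lower value than Uhrf1. In bulk RNA, fewer cells that express a gene and less RNA per cell cannot be told apart.

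**Figure D1:**
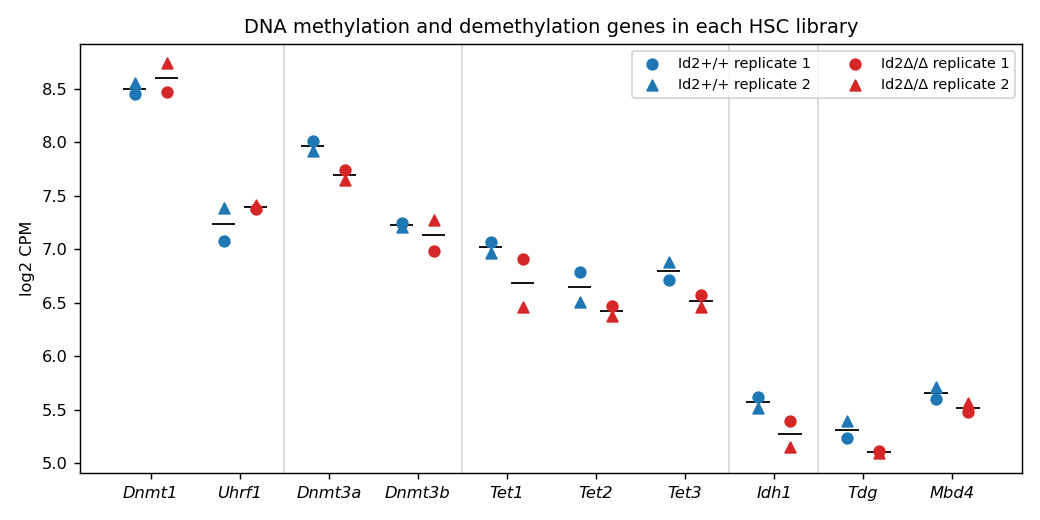
Level of each enzyme gene (vertical axis, log2 CPM) in the 2 Id2+/+ libraries (blue) and the 2 Id2Δ/Δ libraries (red), with circles for replicate 1, triangles for replicate 2 and bars for the mean of each genotype. In 7 genes, from Dnmt3a to Mbd4 but without Dnmt3b, both red points lie below both blue points.

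Dnmt1 (ENSMUSG00000004099.16), the maintenance methyltransferase, is encoded on chromosome 9 from 20907209 to 20959888 (minus strand, GRCm38, as for all positions given here). Its levels were 8.45 and 8.55 log2 CPM in Id2+/+ and 8.47 and 8.74 in Id2Δ/Δ HSCs. The second Id2Δ/Δ library was the highest and the first lay between the controls, so the genotypes overlapped. The log2 fold change was 0.10 (95% interval -0.18 to 0.39), and it was -0.03 without Id2Δ/Δ replicate 2. Uhrf1 (ENSMUSG00000001228.14, chromosome 17 from 56303321 to 56323486, plus strand), whose protein binds hemimethylated CpG and recruits DNMT1, stood at 7.08 and 7.39 log2 CPM in Id2+/+ and 7.38 and 7.42 in Id2Δ/Δ HSCs. Here 1 control library was low and the other 3 libraries were nearly level. Its log2 fold change of 0.16 (95% interval -0.16 to 0.49) was 0.01 without Id2+/+ replicate 1.

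Dnmt1 and Uhrf1 are also known as genes that cycling cells transcribe in S phase, through E2F factors. The list of 25 other S-phase genes had 21 with a positive and 4 with a negative log2 fold change and a median of 0.10, with 7 genes whose Id2Δ/Δ libraries lay above the controls and 1 below, beside 48.3% of all genes tested with a negative value, 19.0% apart on the higher side and 15.8% on the lower. None of the 25 reached an unadjusted p under 0.05. Ccne2, a cyclin of S-phase entry, was 5.20 and 5.15 log2 CPM in Id2+/+ and 5.44 and 5.44 in Id2Δ/Δ HSCs, and the primase gene Prim1 was 6.28 and 6.54 against 6.77 and 6.52. The sum over the list was 3506 and 3861 CPM in Id2+/+ and 3834 and 3984 CPM in Id2Δ/Δ libraries, so that Id2+/+ replicate 1 was lowest for the list as it was for Uhrf1 and Dnmt1. For Dnmt1 it was nearly level with Id2Δ/Δ replicate 1 (8.45 against 8.47 log2 CPM). Whether cycling has a part in the Dnmt1 and Uhrf1 values was not tested.

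Promoter windows from RefSeq (GRCm38.p6, 250 bases before to 50 after an annotated start) were found for all 10 genes, 16 windows in all. They were searched on both strands for E2F motifs (TTTGGCGC, TTTCCCGC, TTTCGCGC or TTTGCCGC), for the HIF core (ACGTG or GCGTG), and for the E-box (CANNTG), the element of the E proteins that ID2 binds. An E2F motif was in 2.26% of 32851 windows of all genes and in 2 of the 16 windows here, of Dnmt1 and of Uhrf1 alone. Those windows held 33 CpG each, against a median of 7 over all windows, and every E2F motif searched holds a CpG. The share over all windows is thus not a share among windows of like CpG content. Both windows are shown because these genes are the pair with higher means, with the E2F motifs in capitals.
Dnmt1, chr9:20952574-20952873, minus strand: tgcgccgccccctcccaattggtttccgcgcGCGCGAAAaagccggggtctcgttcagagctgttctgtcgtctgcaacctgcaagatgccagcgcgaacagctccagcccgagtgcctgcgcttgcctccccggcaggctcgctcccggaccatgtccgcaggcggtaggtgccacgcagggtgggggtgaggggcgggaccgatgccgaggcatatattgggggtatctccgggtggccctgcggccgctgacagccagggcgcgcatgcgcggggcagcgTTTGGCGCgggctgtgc
Uhrf1, chr17:56304063-56304362, plus strand: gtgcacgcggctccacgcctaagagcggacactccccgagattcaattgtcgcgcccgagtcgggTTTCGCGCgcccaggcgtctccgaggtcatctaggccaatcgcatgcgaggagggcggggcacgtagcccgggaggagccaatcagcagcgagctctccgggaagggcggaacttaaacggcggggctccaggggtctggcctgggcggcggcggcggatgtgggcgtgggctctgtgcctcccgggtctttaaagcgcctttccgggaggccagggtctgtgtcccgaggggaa
A match describes the letters of the window and does not show binding. No E2F match in the other windows says only that these letters were not in them.

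Dnmt3a (ENSMUSG00000020661.15, chromosome 12 from 3806007 to 3914443, plus strand), the de novo methyltransferase best known for limiting HSC self-renewal, was 8.01 and 7.91 log2 CPM in Id2+/+ and 7.74 and 7.65 in Id2Δ/Δ HSCs. The genotypes stood 0.17 apart at their nearest libraries, the widest gap of the 10 genes and wider than the 0.10 between the replicates of either genotype. Its log2 fold change was -0.27 (standard error 0.11, 95% interval -0.53 to -0.01, limma's unadjusted p = 0.0449 and Benjamini-Hochberg adjusted p = 0.910). With the replicate number as a block the unadjusted p was 0.0590 and the interval -0.55 to 0.01, without the intensity trend the p was 0.150, and with each library corrected for transcript length the log2 fold change was -0.12. Dnmt3b (ENSMUSG00000027478.15, chromosome 2 from 153649450 to 153687730, plus strand), its close relative, was 7.25 and 7.21 against 6.99 and 7.28 log2 CPM. The Id2Δ/Δ libraries lay on either side of the controls. The log2 fold change of -0.10 (95% interval -0.42 to 0.23) was 0.05 without Id2Δ/Δ replicate 1. Dnmt3a has 18 annotated transcripts and Dnmt3b 12, and the gene-level values do not separate the long and short protein forms.

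The 3 Tet genes had similar negative log2 fold changes. Tet1 (ENSMUSG00000047146.15, chromosome 10 from 62804570 to 62908996, minus strand) was 7.07 and 6.96 log2 CPM in Id2+/+ and 6.91 and 6.46 in Id2Δ/Δ HSCs. Only 0.06 separated the nearest libraries, and the second Id2Δ/Δ library was far below the first. The log2 fold change was -0.33 (95% interval -0.73 to 0.06), and -0.11 without that library. Tet2 (ENSMUSG00000040943.12, chromosome 3 from 133463679 to 133545139, minus strand), the TET gene most often mutated in myeloid disease, was 6.79 and 6.50 in Id2+/+ and 6.47 and 6.38 in Id2Δ/Δ HSCs. Its control libraries differed by 0.29, more than the fold change of -0.22 (95% interval -0.57 to 0.13), which was -0.08 without Id2+/+ replicate 1. Tet3 (ENSMUSG00000034832.15, chromosome 6 from 83362373 to 83459084, minus strand) was 6.72 and 6.88 against 6.57 and 6.46 log2 CPM. Here the genotypes were 0.15 apart, about as far as the 2 control libraries were from each other (0.16), with a log2 fold change of -0.28 (95% interval -0.59 to 0.03). Unadjusted p-values from limma were 0.0886 for Tet1, 0.177 for Tet2 and 0.0704 for Tet3.

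The only RefSeq window of Tet3 holds 2 E-boxes, CAGTTG and CAGCTG, in capitals here, and no HIF core or E2F motif. It is shown because, of the Tet genes, Tet3 had the widest gap between the nearest libraries of the genotypes, though not the largest fold change. E-boxes are common, in 72.3% of all windows and in 13 of the 16 windows of the enzyme genes.
Tet3, chr6:83441629-83441928, minus strand: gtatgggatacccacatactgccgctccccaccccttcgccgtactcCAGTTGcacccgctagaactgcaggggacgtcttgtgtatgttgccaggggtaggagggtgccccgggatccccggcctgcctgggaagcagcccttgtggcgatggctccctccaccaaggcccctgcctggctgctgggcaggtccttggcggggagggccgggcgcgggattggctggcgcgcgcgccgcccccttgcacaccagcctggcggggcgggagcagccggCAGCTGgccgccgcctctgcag
Tet2 was the only gene of the 10 with no E-box in its window. That window was the richest in CpG, the dinucleotide these enzymes act on, with 57 CpG against a median of 7 over all windows, and the other windows of the 10 genes held 2 to 47.

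Idh1 (ENSMUSG00000025950.16, chromosome 1 from 65158616 to 65186500, minus strand), which makes 2-oxoglutarate for the TET reaction, was 5.62 and 5.52 log2 CPM in Id2+/+ and 5.40 and 5.15 in Id2Δ/Δ HSCs. Both Id2Δ/Δ libraries were lower, by at least 0.12. Its log2 fold change was -0.30 (95% interval -0.69 to 0.10, unadjusted p = 0.123, limma), and between -0.42 and -0.17 when 1 library at a time was left out. Tdg (ENSMUSG00000034674.18, chromosome 10 from 82629828 to 82650799, plus strand), which excises the oxidized products that TET enzymes leave, was 5.23 and 5.39 in Id2+/+ and 5.11 and 5.09 in Id2Δ/Δ HSCs. The Id2Δ/Δ libraries nearly coincided and lay 0.12 below the nearer control. The log2 fold change was -0.21 (95% interval -0.60 to 0.18). Mbd4 (ENSMUSG00000030322.12, chromosome 6 from 115840697 to 115853371, minus strand), a glycosylase for deaminated methylcytosine, was 5.60 and 5.71 against 5.48 and 5.56 log2 CPM. Its gap of 0.04 was smaller than the distance between the libraries of either genotype, and the log2 fold change was -0.14 (95% interval -0.50 to 0.22).

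The Tdg window is shown because it holds the most HIF core matches of the 10 genes, 5 in capitals. The last pair overlaps on opposite strands and lies inside an E-box. The Uhrf1 window shown above holds 4 HIF core matches, so the lead of Tdg rests on that overlapping pair. HIF cores were in 8 of the 16 windows of the enzyme genes and in 43.8% of all windows.
Tdg, chr10:82629588-82629887, plus strand: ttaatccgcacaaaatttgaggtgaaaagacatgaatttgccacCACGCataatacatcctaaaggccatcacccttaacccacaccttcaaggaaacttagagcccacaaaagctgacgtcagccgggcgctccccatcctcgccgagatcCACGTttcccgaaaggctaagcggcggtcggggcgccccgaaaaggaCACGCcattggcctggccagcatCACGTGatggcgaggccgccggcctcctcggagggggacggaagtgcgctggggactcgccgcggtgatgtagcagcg
Tdg also has near-identical copies. The processed pseudogene Tdg-ps matched a Tdg transcript over 2968 bases at 98.7% identity and was at -1.66 to -1.24 log2 CPM, and Gm9855 matched over 1194 bases at 99.2% and was at 0.33 to 1.12. Both were far below Tdg itself. Uhrf1 has such a copy in Gm5648, at -0.32 to 0.18 log2 CPM. Among overlapping genes, 5430434F05Rik, annotated inside Tet3 on the same strand, had 1.98 and 1.82 log2 CPM in Id2+/+ and 0.80 and -0.43 in Id2Δ/Δ libraries, Glt8d2, on the opposite strand at Tdg, was at 1.54 to 2.78, and Gm44206, antisense to the end of Mbd4, had 1.92 and 2.40 against 2.84 and 2.52. How reads shared by such genes were assigned is not given in the sources used here.

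**Figure D2:**
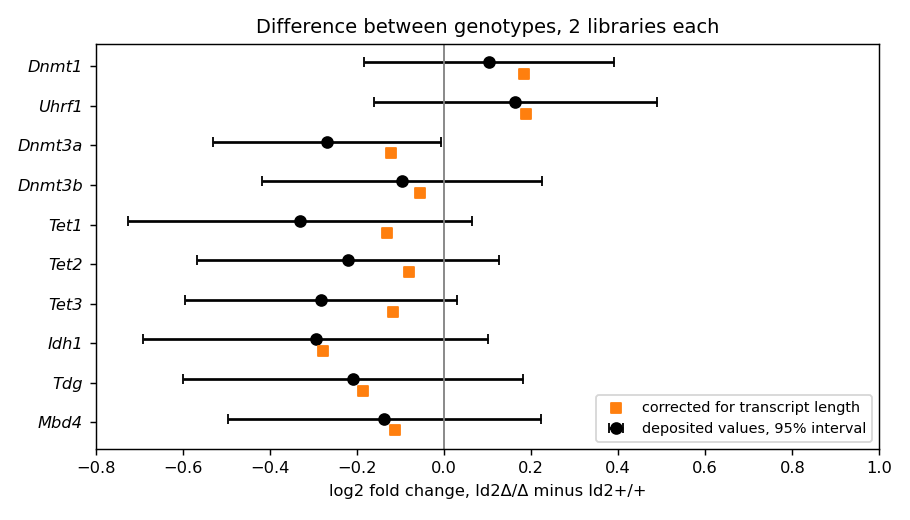
Log2 fold change of each enzyme gene, Id2Δ/Δ minus Id2+/+ (horizontal axis), as circles with the 95% interval from limma over 2 libraries per genotype, and as squares after correction for transcript length. The interval of Dnmt3a alone leaves out 0 (it includes 0 with the replicate block), and the squares of Dnmt3a and the Tet genes lie nearer to 0 than their circles.

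Transcript length moved with the result. Across coding genes, those with a longest transcript of at most 1 kb had a median log2 fold change of 0.16, those of 2 to 3 kb 0.05, and those over 8 kb -0.16. Dnmt3a, Tet1, Tet2 and Tet3 are all in the last class, with longest transcripts of 9179 to 14369 bases, and there 39.3% of 698 coding genes had both Id2Δ/Δ libraries below both controls. Their log2 fold changes of -0.33 to -0.22 lay below that median, and those of Dnmt3a, Tet2 and Tet3 within the middle 50% of the class, from -0.32 to 0.00. Idh1, Tdg and Mbd4 are shorter, with 2302 to 3614 bases. In their classes of 2 to 3 kb and 3 to 4 kb, 11.2% and 12.9% of coding genes had both Id2Δ/Δ libraries lower. Idh1 and Tdg lay below the middle 50% of their class, and Mbd4, at -0.137, lay at its lower edge of -0.134. Dnmt1, at 5870 bases, was higher where its class of 4 to 6 kb had a median of -0.03, but it lay within the middle 50% of that class (-0.18 to 0.12).

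With each library corrected for transcript length, the log2 fold changes were -0.13 for Tet1, -0.08 for Tet2 and -0.12 for Tet3, and the genotypes then overlapped for Tet1 and Tet2. Idh1, Tdg and Mbd4 moved little, to -0.28, -0.19 and -0.11. Dnmt1 and Uhrf1 stood at 0.18 and 0.19, with both Id2Δ/Δ libraries above both controls, so that 5 genes were apart on the lower side (13.5% of all genes after correction) and 2 on the higher side (20.6%). The median over the 10 genes was -0.12, beside 0.03 over all genes, and none had an adjusted p under 0.05 (limma, 0.951 to 0.965).

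**Figure D3:**
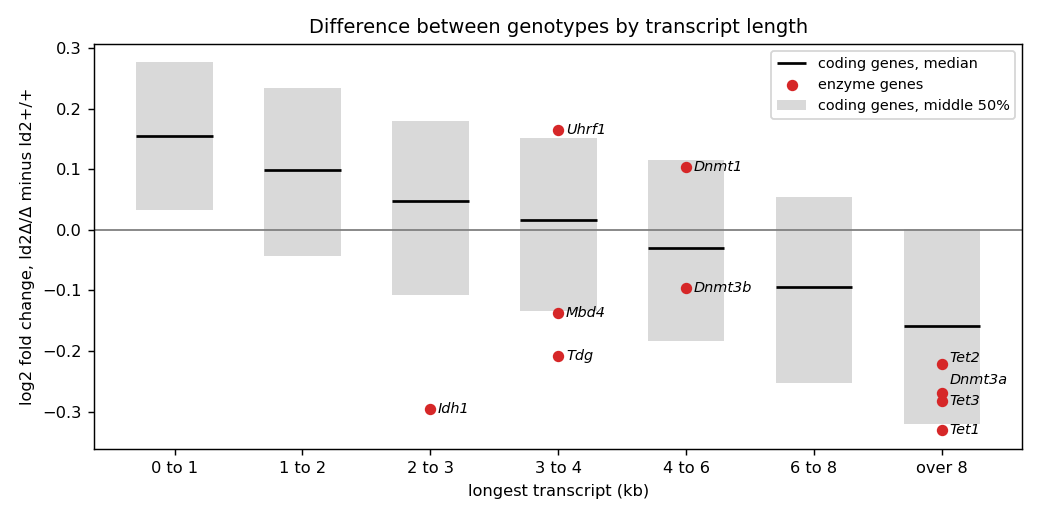
Log2 fold change, Id2Δ/Δ minus Id2+/+ (vertical axis), by length of the longest transcript (horizontal axis, kb), with grey boxes for the middle 50% of coding genes, lines for their median and red points for the enzyme genes. The boxes fall from left to right, and the Tet genes and Dnmt3a lie in or just under the last box. Idh1 and Tdg lie under their boxes, and Mbd4 at the lower edge of its box.

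Levels of different genes were compared per length, as CPM per kb of the longest transcript, averaged over the 4 libraries. Dnmt1 was highest at 64.2 CPM per kb, followed by Uhrf1 at 44.6, Dnmt3b at 33.7, Dnmt3a at 23.6, Idh1 at 18.7, Mbd4 at 13.3, Tdg at 10.6, Tet2 at 10.2, Tet3 at 9.30 and Tet1 at 8.13. Neighbors in this order did not overlap over the 4 libraries, except Dnmt3a with Idh1, Tdg with Tet2, Tet2 with Tet3, and Tet3 with Tet1. The place of Tet3 depends on the transcript taken, since with the one of longest coding sequence (5944 bases in place of 10904) it was at 17.1 CPM per kb and above Mbd4.

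The maintenance enzyme thus made up 49.0% and 52.0% of the summed Dnmt level per kb in Id2+/+ and 54.0% and 56.2% in Id2Δ/Δ HSCs, while Dnmt3a made up 22.0% and 20.2% against 19.8% and 16.0%. These shares did not overlap between genotypes, although the Dnmt1 level itself did. Dnmt3b made up 29.0% and 27.79% in Id2+/+ and 26.2% and 27.78% in Id2Δ/Δ HSCs, so its nearest libraries were nearly level. The shares are parts of the same sum and were not tested. By level, 15.8% of all genes tested were apart on the lower side and 19.0% on the higher. Dividing by length does not remove the difference between length classes described above, in which Dnmt3a lies with the class over 8 kb. With lengths taken from the longest transcript, the Tet genes had similar shares, with Tet1 at 26.4% to 31.3%, Tet2 at 33.7% to 38.9% and Tet3 at 31.1% to 36.7% of their sum over the 4 libraries. That sum was 31.0 and 29.3 CPM per kb in Id2+/+ and 26.7 and 23.3 in Id2Δ/Δ HSCs, and the sum of the Dnmt genes was 121 and 123 against 112 and 129. The ratio of the sums was 3.91 and 4.20 in Id2+/+ and 4.19 and 5.55 in Id2Δ/Δ HSCs, so the genotypes overlapped. These values turn on the transcript taken. With the one of longest coding sequence, an alternative chosen after seeing the data, Tet3 made up 45.0% to 51.3% of the Tet sum and Tet1 20.4% to 24.5%. The ratio was then 3.23 and 3.35 against 3.44 and 4.51, without overlap.

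**Figure D4:**
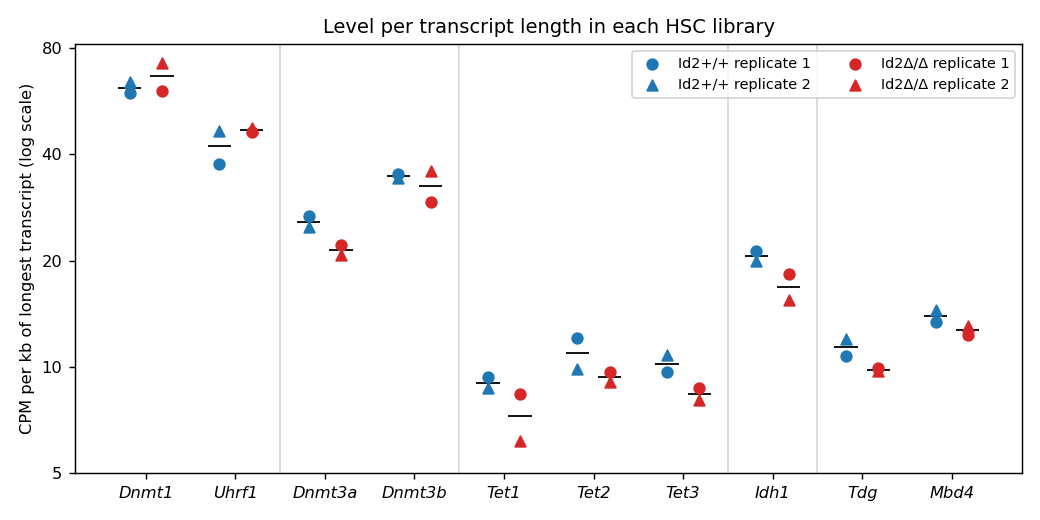
Level of each enzyme gene per kb of its longest transcript (vertical axis, CPM per kb, log scale) in the 2 Id2+/+ libraries (blue) and the 2 Id2Δ/Δ libraries (red), with bars for the mean of each genotype. Dnmt1 and Uhrf1 lie highest, and Tdg and the Tet genes near 10 CPM per kb.

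Before length correction, the lists of genes that work beside these enzymes had medians near 0. After it, medians were 0.06 for methyltransferase partners, 0.04 for the S-adenosylmethionine cycle and 0.06 for TET partners and 2-oxoglutarate metabolism. They were 0.01 for base excision repair and 0.11 for readers of methylated CpG, beside -0.12 for the enzyme genes. Values below are uncorrected unless stated. For the counts below, 48.3% of all genes tested had a negative log2 fold change. Partners of the methyltransferases had 6 genes higher and 6 lower of 12 tested (median log2 fold change 0.04). Cdca7, a factor for the remodeler HELLS, was 7.87 and 7.99 against 8.06 and 8.18 log2 CPM in Id2Δ/Δ HSCs, and the histone methyltransferase gene Setdb1 was 6.65 and 6.60 against 6.78 and 6.85. In the list drawn up for the S-adenosylmethionine cycle, which supplies the methyl group, 9 of 14 were higher and 5 lower (median 0.02). Of the list, 2 genes were lower at an unadjusted p under 0.05, beside 469 of all 15895 genes tested. The 2 genes were Ahcyl2 (log2 fold change -0.80, standard error 0.23, unadjusted p = 0.00914) and Mtr, the methionine synthase (-0.36, standard error 0.15, unadjusted p = 0.0429), each with an adjusted p of 0.910 from limma. After the length correction their log2 fold changes were -0.73 and -0.23.

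Of 15 genes for TET partners and 2-oxoglutarate metabolism, 7 were higher and 8 lower (median -0.000538). Ogt, the glycosyltransferase that associates with TET proteins, was 9.76 and 9.56 against 9.39 and 9.54 log2 CPM, and D2hgdh, which clears 2-hydroxyglutarate, was 5.93 and 5.64 against 5.58 and 5.53. Base excision repair had 9 genes higher and 10 lower of 19 (median -0.01). Neil3, a glycosylase known from proliferating cells, was 5.25 and 5.12 in Id2+/+ and 5.94 and 5.59 in Id2Δ/Δ HSCs (log2 fold change 0.58, standard error 0.18, unadjusted p = 0.0141, adjusted p = 0.910, limma). The replicative ligase gene Lig1 was 6.59 and 7.05 against 7.19 and 7.11. Among 9 genes for readers of methylated CpG, 6 were higher and 3 lower (median 0.05), and Mbd5 was 5.16 and 5.51 against 4.54 and 5.07, and Zbtb38 7.83 and 7.76 against 7.58 and 7.64. After the length correction, the genotypes overlapped for Ogt and Mbd5 but not for D2hgdh or Zbtb38. No gene of these lists had an adjusted p under 0.05, as was so for all genes tested. Pcna stood in both the partner and the S-phase list.

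**Figure D5:**
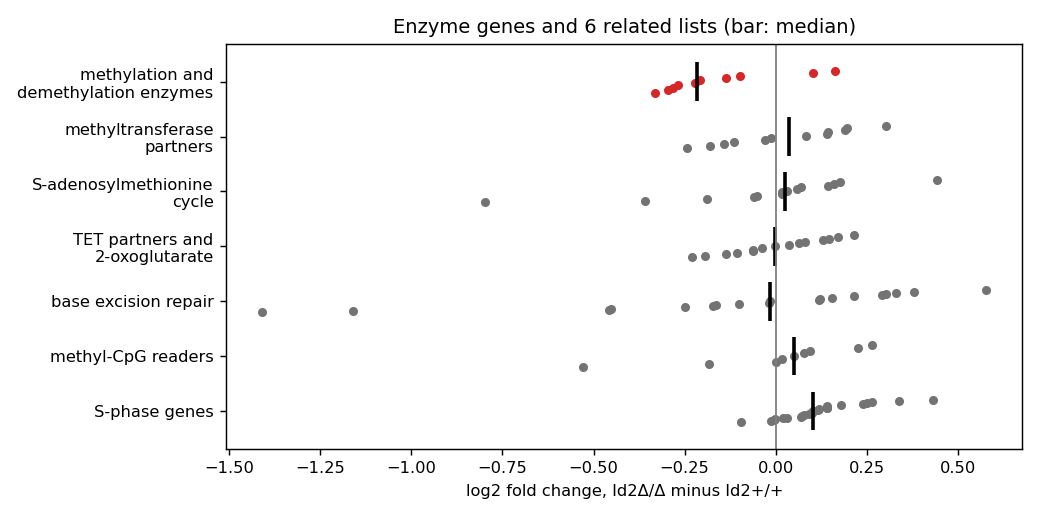
Log2 fold change of each tested gene, Id2Δ/Δ minus Id2+/+ (horizontal axis), for the 10 enzyme genes (red) and 6 related lists (grey), with bars for the medians. The enzyme genes have a median of -0.22, the S-phase genes 0.10 and the other lists lie near 0. These values are not corrected for transcript length.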

How the data were processed

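RNA-Seq of 4 sorted HSC libraries, 2 per genotype, was used. The authors deposited log2 CPM values for 19354 genes, quantile-normalized by them: after sorting, the libraries lie within 0.1 of each other at 88.4% of ranks. The submitters' processing notes name CASAVA 1.8.4, Trimmomatic 0.30, TopHat2 2.0.8, STAR and RSEM, with the builds mm9 and NCBIM37, without their roles. The gene identifiers, however, matched GENCODE M21 on GRCm38 for 99.7% of genes, which is the source of coordinates and transcript lengths. Strand use is not given in the sources used here. Since genes with equal reads share a value, the rank of a distinct value gives its reads below 32 CPM, and depth was estimated as the median ratio of reads (plus 0.5) to CPM, at levels between 1 and 5 log2 CPM. All 10 enzyme genes lie above 32 CPM, where reads are estimates (about 534 or more per library), so no count model was run.

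Values were tested as deposited, without a pseudocount, with limma 3.58.1 in R 4.3.3 (lmFit with genotype alone, then eBayes with its intensity trend; two-sided) over the 15895 genes whose mean level was 1 CPM or more. P-values were adjusted by Benjamini-Hochberg over all of them, and the threshold was 0.05. An exact permutation test of 2 against 2 libraries cannot go below p = 0.333. The length correction took off a natural spline with 5 degrees of freedom, fitted per library to how far each gene lay from its mean. Copies were found with blastn 2.17.0 (at least 90% identity over at least 200 bases). The genes, lists and tests were chosen with earlier results of these data known. By rule, all 10 enzyme genes were named, and from each related list the 2 genes with the smallest p.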

Additional observations from a re-analysis of the deposited data

How the results depend on the processing

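Of 14 alternatives, 5 leave the fold changes of the 10 genes as in another fit by construction, and over the other 9, 88 of 90 fold changes kept their sign. The exceptions were Dnmt1 at -0.0292 without Id2Δ/Δ replicate 2 (range with a library left out -0.0292 to 0.235) and Dnmt3b at 0.0486 without Id2Δ/Δ replicate 1 (range -0.242 to 0.0486). No gene of the 10 had an adjusted p under 0.05 in any alternative (limma, lowest 0.332). The count of genes at an unadjusted p under 0.05 was 1 of 10 as reported and 0 without the intensity trend, with the length correction, with the replicate block, and with the block and the length correction. With each library left out in turn it was 0 to 5, the 5 being without Id2Δ/Δ replicate 1. In those fits a genotype has a lone library, assumed to vary like the others. The median over the 10 genes moved to -0.12 with the length correction, alone or with the replicate block, and was -0.24 to -0.17 with a library left out. The cause was not tested.

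The replicate numbers were not taken as pairs, since the labels do not tie a number to an experiment and the design has only 2 numbers. Same-numbered deviations had a correlation of 0.0592 across all genes tested and 0.144 across the 7377 genes of at least 32 CPM, the range of the enzyme genes, and the summed neutrophil markers were 282 and 262 CPM in replicate 1 and 171 and 142 CPM in replicate 2. With the replicate block, 1 gene of the whole table was called, and 1 with the block and the length correction, in place of 0. It was C130089K02Rik, none of the enzyme genes, and was named after its value was seen. The pseudocounts of 0.1, 1 and 5, the median-ratio scaling and the filters changed no count of the 10 genes. With 2 libraries per genotype, the 95% interval of every enzyme gene but Dnmt3a includes 0, and with the replicate block that of Dnmt3a does too.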

Other observations

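The Id2Δ/Δ libraries differed from each other by more than the genotype means did in Tet1, Dnmt3b and Dnmt1, and by less in Idh1. Taken as replicate 2 minus replicate 1, the log2 level differed by -0.44 in Tet1 and -0.25 in Idh1 and by 0.29 in Dnmt3b and 0.26 in Dnmt1. In the Id2+/+ libraries the same differences were -0.11, -0.10, -0.04 and 0.11, and the largest there were 0.31 in Uhrf1 and -0.29 in Tet2. These values have no test, with 1 library per genotype and number.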
